A study of Mus musculus with 12 samples.

Results

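The EGR transcription factors and their NAB corepressors are 6 genes, Egr1, Egr2, Egr3, Egr4, Nab1 and Nab2, which were selected by gene name from the 51912 genes of the series' expression table. All 6 passed the filter on low counts. Their levels were read in RNA sequencing libraries of mouse striatum, in 4 groups of 3 libraries each. WT-C and WT-T are wild-type mice of the B6CBA background, and R6/2-C and R6/2-T are R6/2 mice, a Huntington's disease model (strain B6CBA-Tg(HDexon1)62Gpb/3J) whose transgene is the first exon of human HTT with an expanded CAG repeat. Mice of every group received an adeno-associated virus (AAV) in both striata at 5 weeks of age. The virus carried a control shRNA in the C groups and an shRNA against TRAX in the T groups, and the striatum was taken at 10.5 weeks. TRAX, encoded by Tsnax, is the partner of the RNA- and DNA-binding protein translin. No group was left uninjected, so every difference described here is between injected striata. The labels name no promoter for the shRNA and do not say that each library is a separate animal, so the p-values measure the spread between libraries.

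EGR proteins are zinc finger transcription factors that bind GC-rich sites in promoters. Their genes are immediate-early genes: synaptic activity, dopamine and growth factors switch them on within minutes through the ERK and CREB pathways, serum response factor and its ELK partners, and in striatal projection neurons they follow dopamine and glutamate input. Nab1 and Nab2 encode corepressors that bind a shared domain of EGR1, EGR2 and EGR3, and Nab2 is itself an EGR target, so that the pair forms a negative feedback loop. EGR4 lacks that NAB-binding domain.

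The stretches just before the start sites of Egr2 and Egr4, the pair with the largest genotype differences under the shTRAX virus below, are shown as RefSeq gives them in GRCm38.p6, 5′ to 3′ on each gene's own strand. Egr2 is chr10:67537689-67537868 (plus strand), which lies inside an intron of longer annotated Egr2 transcripts, and Egr4 is chr6:85513590-85513769 (minus strand). Capitals mark a CArG box, the core site of serum response factor, and the CRE half-site TGACG of CREB, which reads CGTCA where it lies on the other strand.
Egr2: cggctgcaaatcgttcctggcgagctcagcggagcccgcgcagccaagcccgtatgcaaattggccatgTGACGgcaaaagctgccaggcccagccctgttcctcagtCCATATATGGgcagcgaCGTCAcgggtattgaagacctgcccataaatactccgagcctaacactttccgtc
Egr4: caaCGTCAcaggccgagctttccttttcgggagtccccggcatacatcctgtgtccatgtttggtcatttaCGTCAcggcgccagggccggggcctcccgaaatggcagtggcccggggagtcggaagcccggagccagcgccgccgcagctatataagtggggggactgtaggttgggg
The Egr2 stretch held 1 CArG box, which begins 72 bases before the start, and 2 CRE half-sites, at 111 and 55 bases. The Egr4 stretch held 2 CRE half-sites, at 177 and 109 bases, and no CArG box. Of 32851 RefSeq promoter windows of 250 bases, searched on both strands, 1.47% held a CArG box and 17.8% held the CRE half-site.

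The window of Nab1 held another motif, the EGR site GCGNGGGCG, at 141, 109 and 38 bases before the RefSeq start, and this motif was found in 4.70% of the 32851 windows. The 3 sites are shown in capitals, with their flanks, on the minus strand of GRCm38.p6, at chr1:52500571-52500599, chr1:52500539-52500567 and chr1:52500468-52500496. These positions lie inside the first exon of a longer GENCODE transcript of Nab1.
Nab1 EGR site 1: gccccgcggcCGCCCACGCcgggatctgc
Nab1 EGR site 2: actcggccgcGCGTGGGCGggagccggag
Nab1 EGR site 3: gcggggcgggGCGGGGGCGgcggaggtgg
The EGR site did not occur in the windows of Egr2, Egr4 or Nab2, and a match or its absence in these letters says nothing of binding.

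Egr1 (ENSMUSG00000038418) lies on the plus strand of chromosome 18 at 34859823 to 34864984 in GRCm38, Egr2 (ENSMUSG00000037868) on the plus strand of chromosome 10 at 67535475 to 67542188, and Egr3 (ENSMUSG00000033730) on the plus strand of chromosome 14 at 70077445 to 70080157. Egr4 (ENSMUSG00000071341) lies on the minus strand of chromosome 6 at 85511121 to 85513589, Nab1 (ENSMUSG00000002881) on the minus strand of chromosome 1 at 52457294 to 52500679, and Nab2 (ENSMUSG00000025402) on the minus strand of chromosome 10 at 127660918 to 127668568.

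As a check of the labels, Tsnax stood at 55.6 to 64.7 FPKM (fragments scaled to transcript length and library depth) in WT-C and 64.0 to 76.0 in R6/2-C, against 10.3 to 13.0 in WT-T and 15.2 to 17.7 in R6/2-T. The summed level of 14 markers of striatal projection neurons was 1270 to 3674 FPKM over the 12 libraries, and that of 10 cortical excitatory neuron markers 20.5 to 38.1 FPKM. Fragment totals recovered from the deposited scaled counts were 32206237 to 57308868 per library. Library 1 of R6/2-C, library 3 of WT-C and libraries 2 and 3 of WT-T held at least 53079505 fragments, and the other 8 libraries, all of R6/2-T among them, at most 41707054.

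In wild-type striatum under the control virus, Egr1 and Egr3 were the most abundant members in FPKM and Egr2 the least. Egr1, the most widely studied activity-regulated member, stood at 99.0, 61.6 and 99.2 FPKM in the 3 WT-C libraries and at 124, 110 and 92.3 FPKM in WT-T. In R6/2-C it stood at 51.1, 40.3 and 29.5 FPKM, and in R6/2-T at 28.5, 28.9 and 36.4 FPKM. The genotypes did not overlap for Egr1, whereas the virus groups overlapped within each genotype.

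Egr3, known for its part in muscle spindle development and in neuronal activity responses, stood at 59.6, 74.1 and 68.8 FPKM in WT-C and at 58.5, 67.3 and 72.3 FPKM in WT-T. The R6/2-C libraries held 42.5, 39.0 and 27.9 FPKM and the R6/2-T libraries 24.6, 23.2 and 25.5 FPKM. All R6/2 libraries lay below all wild-type libraries for Egr3, and every R6/2-T library lay below every R6/2-C library.

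Egr4, an autoregulated immediate-early member, stood at 33.2, 34.4 and 32.9 FPKM in WT-C and at 47.2, 61.2 and 52.3 FPKM in WT-T. It stood at 27.5, 13.6 and 12.1 FPKM in R6/2-C and at 7.83, 9.22 and 10.9 FPKM in R6/2-T. The 4 groups did not overlap at all for Egr4, in the order WT-T, WT-C, R6/2-C, R6/2-T, and library 1 of R6/2-C stood closer to the WT-C libraries than to the rest of its own group.

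Egr2, best known as the master regulator of Schwann cell myelination and also induced in neurons, stood at 10.0, 8.37 and 5.34 FPKM in WT-C and at 4.16, 14.1 and 3.85 FPKM in WT-T. Its R6/2-C libraries held 1.59, 1.15 and 0.948 FPKM and its R6/2-T libraries 0.436, 0.377 and 0.772 FPKM. The genotypes did not overlap, and neither did the virus groups of R6/2, but the spread within WT-T was wider, relative to the mean, than for any other member.

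Nab2, the inducible corepressor, stood at 18.0, 19.3 and 22.2 FPKM in WT-C and at 21.8, 23.2 and 22.3 FPKM in WT-T. It stood at 17.9, 17.2 and 14.3 FPKM in R6/2-C, each below every wild-type library in FPKM though not in CPM (StringTie counts scaled to library size), and at 10.7, 11.9 and 12.3 FPKM in R6/2-T, where all libraries lay below those of the other groups. Nab1, the more evenly expressed corepressor, was flat by comparison. It stood at 11.9, 10.5 and 11.3 FPKM in WT-C, at 11.7, 9.67 and 9.92 FPKM in WT-T, at 9.01, 11.2 and 10.6 FPKM in R6/2-C and at 8.39, 9.71 and 9.80 FPKM in R6/2-T. Its groups overlapped in FPKM and in CPM in each of the 4 comparisons below.

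**Figure D1:**
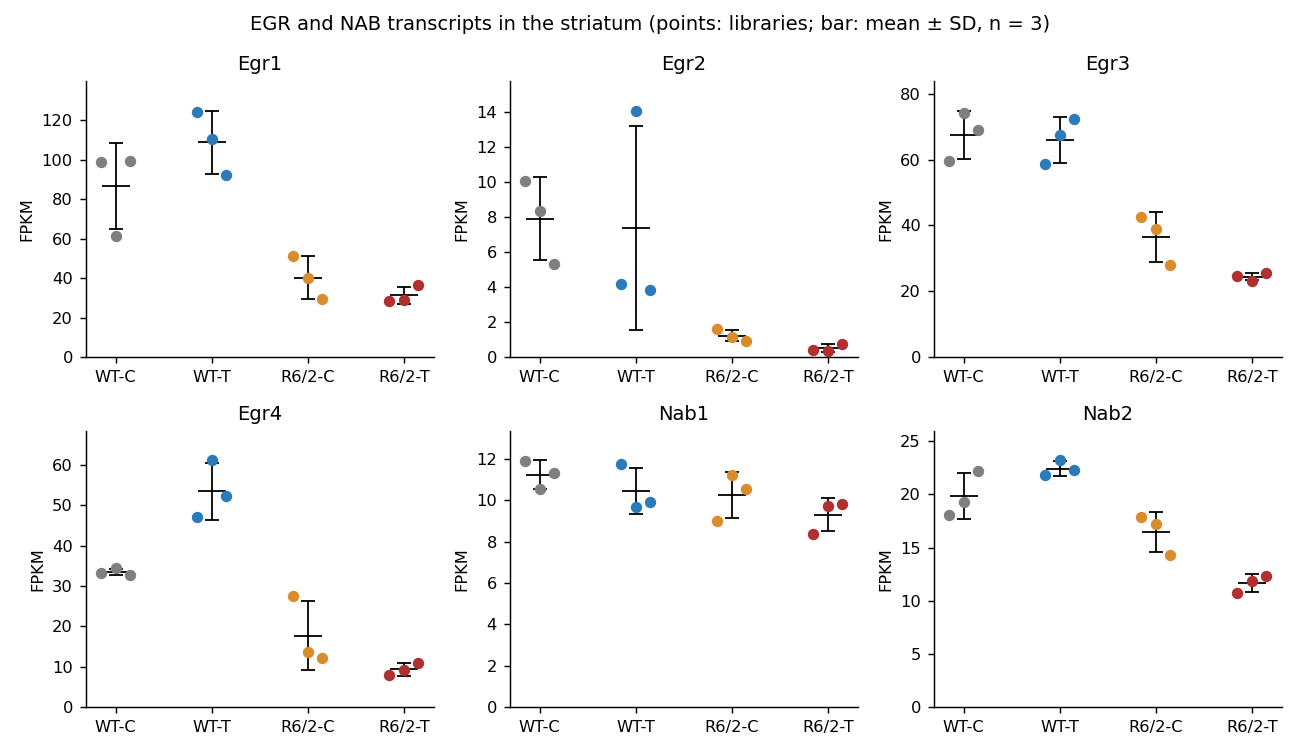
FPKM of each member (vertical axis) in the 4 groups (horizontal axis), with 1 point for each library and the mean ± SD of 3 libraries. The EGR genes and Nab2 have their lowest mean in R6/2-T, Egr4 does not overlap between any of the groups, and Nab1 stays between 8.39 and 11.9 FPKM in all 12 libraries.

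Ordered by mean FPKM per length, WT-C ran from Egr1 (86.6 ± 21.7, SD, n = 3) and Egr3 (67.5 ± 7.33), whose libraries overlapped, through Egr4 (33.5 ± 0.843), Nab2 (19.9 ± 2.17) and Nab1 (11.2 ± 0.692) to Egr2 (7.92 ± 2.39). Neighbours from Egr3 downwards did not overlap in that group. The Egr2 mean includes library 3 of WT-C, at 5.34 FPKM and only 1.77 StringTie counts per recovered fragment, as described below. Egr1 lay at the 97.6th percentile of mean WT-C FPKM among the 23453 genes tested, Egr3 at the 96.6th, Egr4 at the 91.4th, Nab2 at the 84.6th, Nab1 at the 73.9th and Egr2 at the 66.6th. In R6/2-T the order differed in the middle: Nab2 (11.6 ± 0.827), Egr4 (9.32 ± 1.54) and Nab1 (9.30 ± 0.791) followed Egr1 (31.3 ± 4.43) and Egr3 (24.5 ± 1.14), and neighbours among those 3 overlapped.

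Under the control virus, R6/2 striatum held less Egr1, Egr2 and Egr3 RNA than wild-type striatum. Egr2 fell the most, to 15.1% of its wild-type level, while Egr1 and Egr3 fell to 45.3% and 52.5%. The differences in the edgeR fit, on the log2 scale, were −2.72 ± 0.54 (SE) for Egr2 (adjusted p = 0.0159), −1.14 ± 0.23 for Egr1 (adjusted p = 0.0135) and −0.93 ± 0.17 for Egr3 (adjusted p = 0.0102), where a gene was called at an adjusted p under 0.05. These 3 of 6 members were called, all lower, against 9.09% of all genes tested in either direction and 4.22% lower.

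Egr4 differed by −0.96 ± 0.27 and missed the threshold (edgeR adjusted p = 0.0533), although all 3 of its R6/2-C libraries lay below all WT-C libraries. Without library 1 of R6/2-C the difference was −1.44 with an adjusted p of 0.00364, and with that library kept Egr4 passed in DESeq2 (adjusted p = 0.00669) and in limma (adjusted p = 0.0304 and 0.0309). The corepressors did not pass: Nab2 differed by −0.26 ± 0.12 (adjusted p = 0.213) and Nab1 by −0.18 ± 0.11 (adjusted p = 0.353), and both overlapped between the genotypes in CPM. In all, 4 members had no overlap between the genotypes and lay lower in R6/2-C, as did 14% of all genes tested. The call of Egr2 ended without library 3 of R6/2-C (−2.55, adjusted p = 0.0642), and a fit of only the 2 groups compared called Egr2 alone, with Egr1 at an adjusted p of 0.077 and Egr3 at 0.0544.

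Under the shTRAX virus the genotype difference covered all 4 EGR genes and Nab2. Egr2 stood at 7.22% of its WT-T level, Egr4 at 17.1%, Egr1 at 28.4%, Egr3 at 36.3% and Nab2 at 51.8%. In log2, Egr2 differed by −3.79 ± 0.57 (adjusted p = 0.00165), Egr4 by −2.55 ± 0.29 (adjusted p = 0.000414) and Egr1 by −1.81 ± 0.23 (adjusted p = 0.000601). Egr3 differed by −1.46 ± 0.17 (adjusted p = 0.000441) and Nab2 by −0.95 ± 0.13 (adjusted p = 0.00074). Nab1 differed by −0.19 ± 0.11 and did not pass (adjusted p = 0.249).

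These 5 of 6 members were called, all lower, where 22.6% of all genes tested were called in either direction and 11.1% lower. The same 5 members had no overlap between the genotypes in CPM, as had 20.9% of all genes in the lower direction. Without library 2 of WT-T, the high one for Egr2 in FPKM and CPM, the Egr2 difference was −2.91, still past the threshold. That fit keeps only libraries 1 and 3 of WT-T, which held 0.967 and 1.46 StringTie counts per Egr2 fragment, as described below. In recovered fragments library 2 was not the high one. Nab2 shares its locus with Stat6 and Nemp1 on the other strand, and the labels and headers do not state whether the authors' counting used strand. Stat6 lay on the same side as Nab2, with 5.35 to 6.08 FPKM in R6/2-T and 6.15 to 10.3 in WT-T, without overlap, and was not called (log2 −0.43, unadjusted p of 0.0334, adjusted p = 0.105). Nemp1 was at 0.12 (adjusted p = 0.846), and the antisense gene Gm16229 reached at most 0.102 FPKM in any library.

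The shTRAX virus in wild-type mice gave no called member. Egr4 came closest, with all 3 WT-T libraries above all 3 WT-C libraries and a level 1.63 times as high (log2 0.71 ± 0.27), but its p of 0.0259 became 0.715 after adjustment over all genes. Egr1 differed by 0.35 ± 0.22, Nab2 by 0.24 ± 0.12, Egr3 by 0.00101 ± 0.17, Nab1 by −0.095 ± 0.11 and Egr2 by −0.10 ± 0.50, and all of these overlapped between the groups in CPM. edgeR called 0.00426% of all genes in this comparison, which is Tsnax alone, and gave an unadjusted p under 0.05 to 1 of 6 members and to 6.45% of all genes. Groups without overlap in the higher direction were found for 5.28% of all genes. DESeq2 and limma called 0 members too, as did the fit of recovered fragments described below, which called 0.0213% of its genes.

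In R6/2 mice the shTRAX virus again gave no called member in edgeR, and 0.0682% of all genes were called. All 6 values lay below 0. Nab2 differed by −0.45 ± 0.12, with an unadjusted p of 0.00416 and an adjusted p of 0.106, and Egr4 by −0.88 ± 0.27, with 0.00848 and 0.136. Egr3 differed by −0.53 ± 0.17, with an unadjusted p of 0.00937 and an adjusted p of 0.14, and Egr2 by −1.17 ± 0.52, with 0.0488 and 0.257. For each of these 4 members every R6/2-T library lay below every R6/2-C library, as it did for 12.9% of all genes, and an unadjusted p under 0.05 was found for the same number of members and for 19.2% of all genes. Egr1 differed by −0.32 ± 0.22 and Nab1 by −0.11 ± 0.11, with overlap.

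The Egr4 value rests in part on library 1 of R6/2-C, the highest of its group for the 4 EGR genes and Nab2, and was −0.41 without it. DESeq2 called Egr4 (−0.88, adjusted p = 0.0309) and Nab2 (−0.44, adjusted p = 0.0355), where it called 1684 genes in all against 16 in edgeR. The authors' deposited table for this comparison is a selection, named as neuron-enriched and differentially expressed, and lists 626 genes, of which Egr4 is the only member. The other members' absence from it is no test result. In that table, Egr4 has a mean of 9.32 FPKM in R6/2-T against 17.7 in R6/2-C, a ratio of 0.526, a log2 ratio of −0.93, a p of 0.0032 and a q of 0.0572, and it is marked as not significant.

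**Figure D2:**
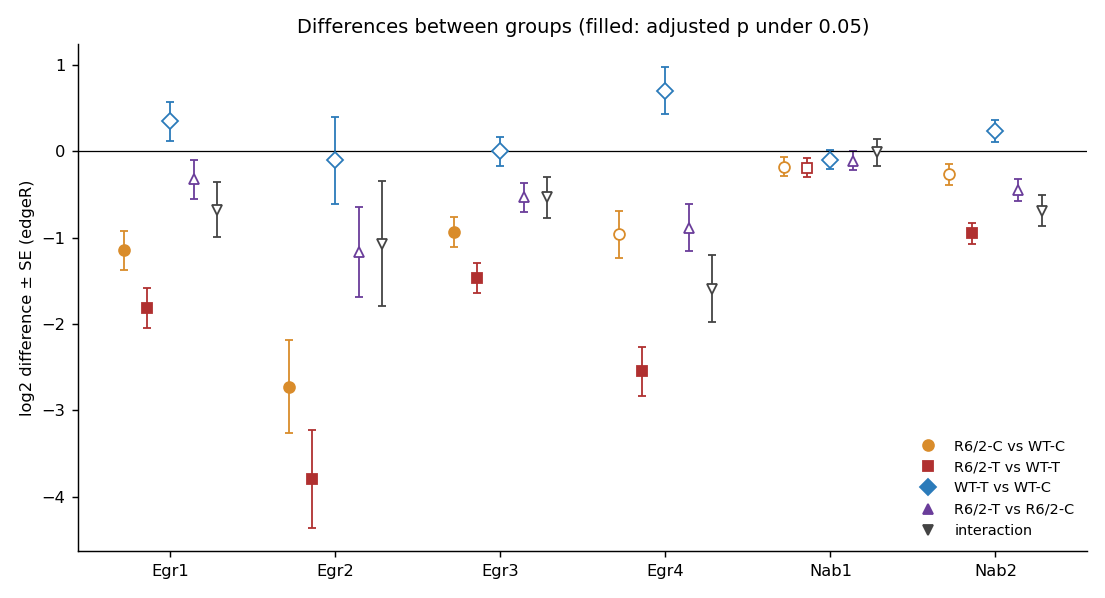
Difference of each member (horizontal axis) between groups, in log2 ± SE from edgeR (vertical axis), with filled symbols at an adjusted p under 0.05. The filled symbols are 3 members for R6/2-C against WT-C and 5 for R6/2-T against WT-T, and no symbol is filled for the virus comparisons or the interaction.

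Whether the virus difference itself differed between the genotypes was tested by the interaction, the shTRAX difference in R6/2 minus that in wild-type mice. It was −1.59 ± 0.39 for Egr4, −0.68 ± 0.18 for Nab2 and −0.53 ± 0.24 for Egr3, with an unadjusted p of 0.00184, 0.00241 and 0.0478. After adjustment over all genes none of these passed in edgeR, with an adjusted p of 0.346 for Egr4 and for Nab2 and 0.422 for Egr3. The interaction was −0.67 ± 0.32 for Egr1, −1.07 ± 0.72 for Egr2 and −0.0109 ± 0.15 for Nab1. The Egr2 value was −0.18 without library 2 of WT-T and −1.67 in the fit of recovered fragments described below. Leaving out library 2 keeps only the WT-T libraries with few StringTie counts per Egr2 fragment. An unadjusted p under 0.05 was found for 3 of 6 members and for 11.7% of all genes, while 0.00426% of all genes were called. DESeq2 called 1 member, Egr4 (−1.58, adjusted p = 0.0195), with 190 genes called in all.

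Egr4 was the 1 member whose libraries lay above the control libraries without overlap in wild-type mice and lay below them without overlap in R6/2, a pattern seen in 97 of 23453 genes (0.414%). None of its differences with the virus passed the adjusted threshold in edgeR. Depth moves with these groups: the deeper libraries include libraries 2 and 3 of WT-T and library 1 of R6/2-C and none of R6/2-T. With a depth term in the model, a choice made after seeing the data, the Egr4 interaction was −1.15. The 8 shallower libraries alone gave −0.82, but they hold only 1 library of WT-T.

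The size of the Egr2 difference depends on which of the authors' quantities is read. The StringTie counts, on which the tests above rest, held 3.81 to 4.21 counts per recovered fragment of Egr2 in 9 libraries, but 1.77 in library 3 of WT-C, 0.967 in library 1 of WT-T and 1.46 in library 3 of WT-T. The other members held 3.32 to 4.52 counts per fragment in all 12 libraries. In recovered fragments divided by each library's fragment total (FPM), without the TMM factor that CPM carries, Egr2 stood at 34.6, 28.03 and 39.1 in WT-C and at 55.6, 48.8 and 34.9 in WT-T, against 5.43, 4.06 and 3.11 in R6/2-C and 1.53, 1.21 and 2.55 in R6/2-T. On that scale the 3 wild-type libraries low for Egr2 no longer stood apart. Their Egr2 FPKM were low too, at 5.34, 4.16 and 3.85, so the levels, ranks and shares of Egr2 in FPKM carry the same limit. Nab1 stood at 41.4 to 42.4 FPM in R6/2-T and 42.7 to 50.8 in WT-T, without overlap, unlike its FPKM and CPM. Its difference was not called in the edgeR fit of fragments (log2 −0.17, adjusted p = 0.171).

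In the edgeR fit of the fragments, Egr2 fell by 3.05 on the log2 scale in R6/2-C against WT-C (SE 0.27, adjusted p = 0.000129) and by 4.71 in R6/2-T against WT-T (SE 0.30, adjusted p = 7.96e-06). It was also called in R6/2-T against R6/2-C (−1.21 ± 0.28, adjusted p = 0.0485), where 2.7% of all genes were called in fragments. Its value for WT-T against WT-C turned from −0.10 to 0.46 ± 0.24 (adjusted p = 0.695). Egr4 passed in fragments for R6/2-C against WT-C (−0.97, adjusted p = 0.0302), which made 4 called members where 17.4% of all genes were called.

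**Figure D3:**
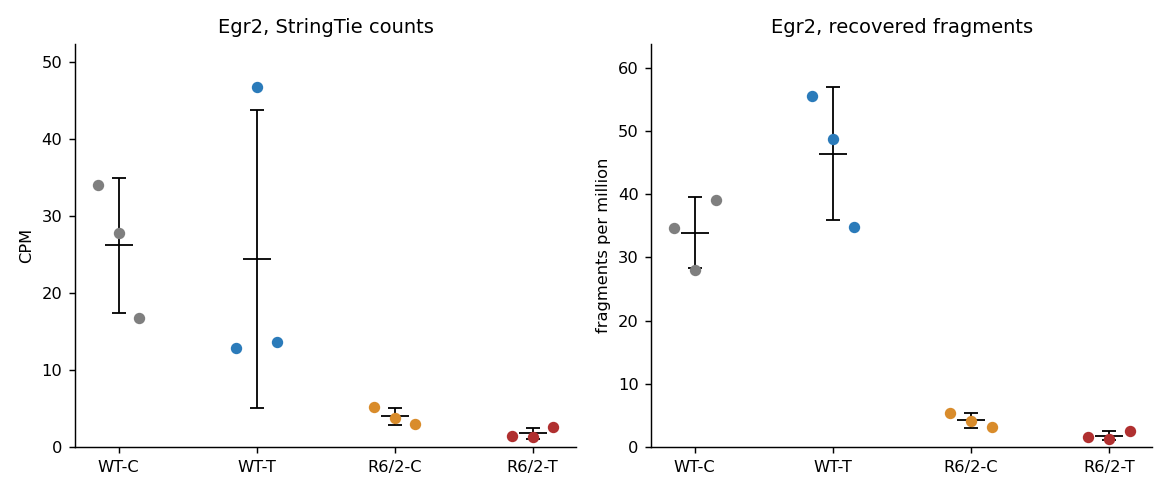
Egr2 by library (points) in the 4 groups (horizontal axes), as CPM from StringTie counts (left) and as FPM from recovered fragments (right), with mean ± SD of 3 libraries. Library 3 of WT-C and libraries 1 and 3 of WT-T are low on the left and stand at 39.1, 55.6 and 34.9 FPM on the right.

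Summed per length, EGR transcripts stood further apart between the genotypes than NAB transcripts. Summed FPKM of the 4 EGR genes was 179 to 206 in WT-C, 221 to 253 in WT-T, 70.4 to 123 in R6/2-C and 61.4 to 73.6 in R6/2-T. Summed FPKM of the NAB genes was 29.8 to 33.5 in WT-C, 32.2 to 33.5 in WT-T, 24.9 to 28.4 in R6/2-C and 19.1 to 22.1 in R6/2-T. NAB FPKM per EGR FPKM was 0.148 to 0.167 in WT-C and 0.130 to 0.146 in WT-T, against 0.219 to 0.353 in R6/2-C and 0.300 to 0.350 in R6/2-T. The genotypes did not overlap in this ratio, which is a description with no test.

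**Figure D4:**
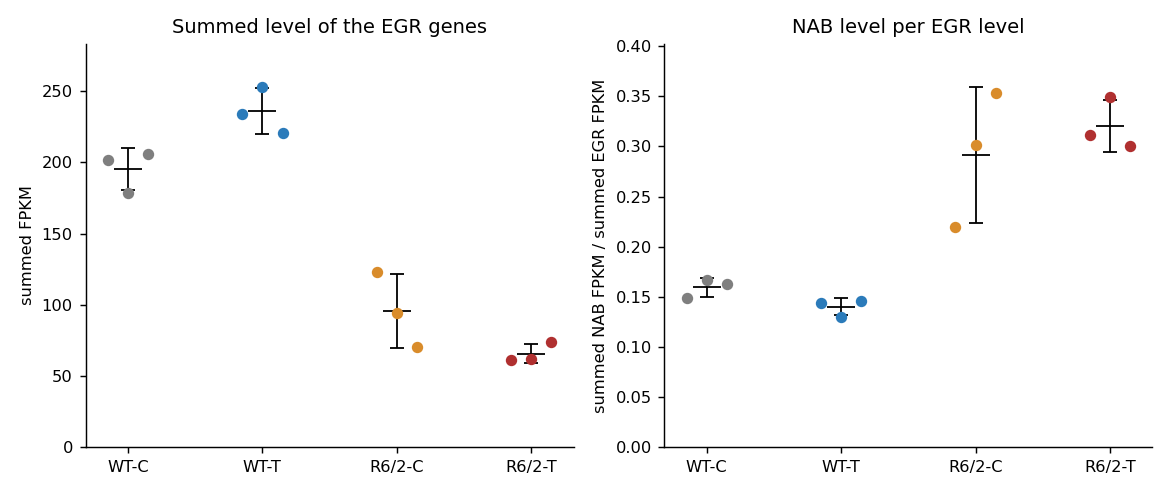
Summed FPKM of the 4 EGR genes (left) and summed NAB FPKM divided by summed EGR FPKM (right) in each library, by group, with mean ± SD of 3 libraries. All 6 R6/2 libraries lie below the wild-type libraries on the left, at no more than 123 FPKM, and above them on the right, at 0.219 or more.

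Egr1 kept a like share of the summed EGR FPKM in every group, with 43.9 ± 8.14% (SD, n = 3) in WT-C, 46.2 ± 6.03% in WT-T, 42.2 ± 0.632% in R6/2-C and 47.6 ± 1.63% in R6/2-T. The share of Egr4 was 17.2 ± 1.81% in WT-C, 22.7 ± 2.19% in WT-T, 18.0 ± 4.03% in R6/2-C and 14.2 ± 1.22% in R6/2-T, highest where the gene itself was highest. Egr2 made up 2.59 to 4.98% in WT-C and 1.74 to 5.57% in WT-T, against 1.22 to 1.35% in R6/2-C and 0.611 to 1.05% in R6/2-T. The lowest wild-type shares were those of library 3 of WT-C and libraries 1 and 3 of WT-T, which held few Egr2 counts per fragment.

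The EGR genes did not stand alone among activity-regulated genes. Of 18 other immediate-early genes, all tested, 10 were called lower and 0 higher in R6/2-C against WT-C, and 18 lower in R6/2-T against WT-T, beside 4.22% and 11.1% of all genes called lower. The median log2 difference of the list was −0.77 and −1.53, beside −0.021 and −0.051 over all genes tested. Arc, which encodes a postsynaptic protein that traffics glutamate receptors, fell from 289.9 ± 9.36 CPM (SD, n = 3) in WT-C to 74.8 ± 21.0 in R6/2-C (log2 −1.95 ± 0.21, adjusted p = 0.000889). Npas4, an activity-dependent transcription factor of neurons, fell from 49.2 ± 12.8 to 12.8 ± 4.78 CPM (log2 −1.94 ± 0.34, adjusted p = 0.00953). Junb, an AP-1 subunit, stood at 193.9 ± 22.8 CPM in WT-T and 32.3 ± 4.27 in R6/2-T (log2 −2.59 ± 0.23, adjusted p = 0.000114).

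No gene of that list was called for the virus in either genotype by edgeR, where the medians were 0.34 in wild-type mice and −0.56 in R6/2 mice. An unadjusted p under 0.05 was found for 5 of the 18 genes in wild-type mice, beside 6.45% of all genes, and for 6 in R6/2 mice, beside 19.2%. The interaction had a median of −0.72 over the list, beside −0.040 over all genes. It called 0 of the 18 and gave an unadjusted p under 0.05 to 11, beside 11.7% of all genes. The summed level of the 18 genes was 379 to 418 FPKM in WT-C, 533 to 607 in WT-T, 163 to 251 in R6/2-C and 127 to 166 in R6/2-T. The highest R6/2-C value was that of library 1, the library that was also highest for the EGR genes, and the other two held 177 and 163 FPKM.

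Upstream, the ERK and CREB route was read from 29 listed genes. Of these, 5 were called lower and 0 higher in R6/2-C against WT-C, and 6 lower and 2 higher in R6/2-T against WT-T, with list medians of −0.13 and −0.13. Over all genes 4.22% were called lower and 4.87% higher in the former comparison, and 11.1% and 11.5% in the latter. Hras, a Ras GTPase, fell from 89.6 ± 3.63 CPM in WT-C to 60.9 ± 7.35 in R6/2-C (log2 −0.56 ± 0.10, adjusted p = 0.00809). Rps6ka4, which encodes the kinase MSK2, fell from 57.9 ± 7.29 to 31.6 ± 3.79 CPM (log2 −0.87 ± 0.14, adjusted p = 0.00596). Rps6ka5, which encodes MSK1, was called too (log2 −0.51, but −0.29 in fragments), and stood at 62.4 ± 3.72 CPM in WT-T and 65.5 ± 2.70 in R6/2-T. Rasgrp2, an activator of Rap GTPases, was called too (log2 −1.37), but it held only 1 to 13 recovered fragments a library and was not tested on that scale. Ptpn5, the striatum-enriched phosphatase STEP that inactivates ERK, fell by 1.20 on the log2 scale between R6/2-T and WT-T.

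Downstream, 25 genes reported as EGR targets were read, among them Arc and Nr4a2, which also belong to the immediate-early list. In R6/2-C against WT-C 5 were called lower and 1 higher, with a list median of −0.23, and in R6/2-T against WT-T 11 lower and 2 higher, with a median of −0.70. The shares of all genes called lower and higher were 4.22% and 4.87% in the former and 11.1% and 11.5% in the latter. Ppp1r1b, which encodes DARPP-32 and is also a projection neuron marker, fell in both comparisons (log2 −1.18 and −1.92). Pmp22, a myelin protein gene, fell in both too (log2 −0.96 and −1.02). Ngfr, a neurotrophin receptor, fell from 10.1 ± 5.37 CPM in WT-C to 3.57 ± 1.62 in R6/2-C (adjusted p = 0.0426). In both virus comparisons 0 of the 25 were called by edgeR, with an unadjusted p under 0.05 for 1 in wild-type and 9 in R6/2 mice, beside 6.45% and 19.2% of all genes.

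Among 10 binding partners and zinc finger relatives of the EGR proteins, the called genes were higher in R6/2, 1 under the control virus and 4 under the shTRAX virus, where 4.87% and 11.5% of all genes were called higher. Wt1, a zinc finger factor that binds EGR-like sites, was near the floor in wild-type mice, at 0.569 ± 0.204 CPM in WT-C and 0.226 ± 0.129 in WT-T. It stood at 5.77 ± 1.13 CPM in R6/2-C and 2.70 ± 0.864 in R6/2-T (log2 3.33 ± 0.42 and 3.59 ± 0.43, adjusted p = 0.00172 and 0.000482). Chd3, a chromatin remodeller of the NuRD complex and relative of the NAB2 partner CHD4, rose by 0.80 in R6/2-T against WT-T, Sp4 by 0.78 and Sp3 by 0.51, both GC-box factors.

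Markers of striatal projection neurons moved with the genotype. Of 14 projection neuron markers 9 were called lower in R6/2-C against WT-C (median log2 −0.90) and 10 in R6/2-T against WT-T (median −1.41), beside 4.22% and 11.1% of all genes. Their summed level was 2994 to 3599 FPKM in WT-C, 3054 to 3674 in WT-T, 1697 to 1934 in R6/2-C and 1270 to 1344 in R6/2-T, so the R6/2-T libraries again lay below those of R6/2-C. Pdyn, which encodes the opioid precursor prodynorphin, was the 1 marker called between R6/2-T and R6/2-C (log2 −0.80, adjusted p = 0.0292). In bulk tissue, fewer cells of a type and less RNA per cell cannot be told apart, and the part of these markers in the EGR differences was not tested.

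Markers of other cell types are given beside these. The summed cortical markers were 22.0 to 34.0 FPKM in WT-C, 23.4 to 38.1 in WT-T, 25.5 to 34.1 in R6/2-C and 20.5 to 24.2 in R6/2-T, and 1 of 10, Slc30a3, was called lower in R6/2-T against WT-T. Slc30a3 was near the floor, at 1.47 ± 0.918 CPM in WT-T and 0.302 ± 0.0865 in R6/2-T. The median log2 difference of the cortical list was 0.14 in R6/2-C against WT-C and −0.86 in R6/2-T against WT-T. For the virus it was 0.50 in wild-type mice and −0.69 in R6/2 mice, and it was −1.18 for the interaction, with 0 called in each. In R6/2-C against WT-C, 5 of 10 oligodendrocyte markers, 6 of 10 astrocyte markers, 5 of 10 endothelial and mural markers and 0 of 10 microglia markers were called lower and none higher, where 4.22% of all genes were called lower. In R6/2-T against WT-T the lower counts were 6, 5, 3 and 5, and 4 of 8 lymphoid and Schwann cell markers were called lower, again with none higher, where 11.1% of all genes were called lower. The part of these cell types in the EGR and NAB differences was not tested.

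**Figure D5:**
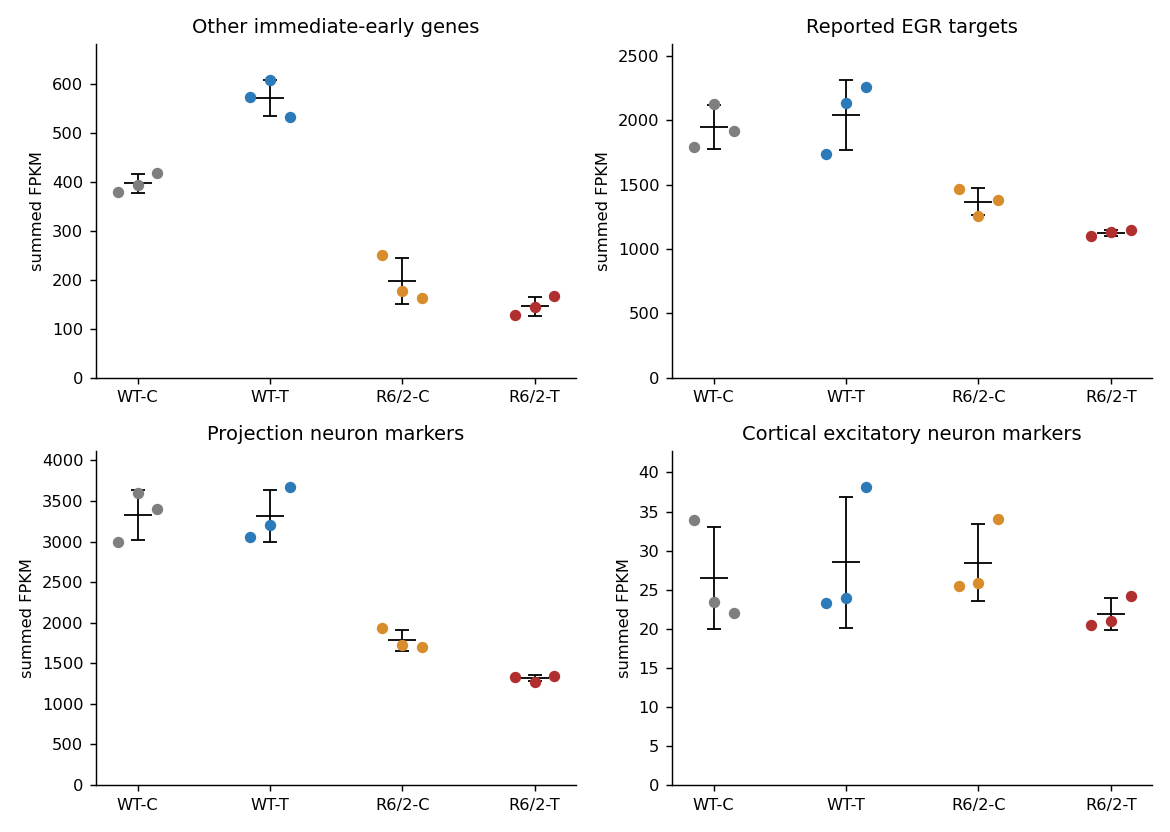
Summed FPKM (vertical axes) of the other immediate-early genes, the reported EGR targets, the projection neuron markers and the cortical markers in each library, by group (horizontal axes), with mean ± SD of 3 libraries. The immediate-early genes are highest in WT-T (533 to 607 FPKM), the projection neuron markers overlap between WT-C and WT-T, and the cortical markers overlap between the genotypes under the control virus. The cortical markers lie lower in R6/2-T than in R6/2-C, without overlap.

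The genes whose profiles over the 12 libraries were most like those of the members were found by the root mean square (RMS) difference of log2 CPM, each gene centred on its own mean, among 13358 genes. For Egr4 they were Junb (0.190), Fos (0.241) and Nr4a1 (0.332), all immediate-early genes. For Egr3 they were Drd2 (0.0949), the D2 dopamine receptor, Syndig1l (0.113) and Rasd2 (0.122), the latter a striatum-enriched small GTPase. For Egr1 they were Krt9 (0.245), Arl4d (0.246) and Fosl2 (0.249), an AP-1 subunit.

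Nab2 lay nearest to Mchr1 (0.105), a melanin-concentrating hormone receptor, Srf (0.115), which encodes serum response factor, and Srm (0.124), spermidine synthase. Nab1 lay nearest to Jam2 (0.0790), Rbmx (0.0856) and Mcur1 (0.0873). For Egr2 they were Scn4b (0.678), a sodium channel subunit, Fgf3 (0.732) and Slc4a11 (0.737). The distance is not scaled to a gene's own spread, which was 1.72 log2 CPM (SD over the 12 libraries) for Egr2 and 0.149 for Nab1, and the Egr2 profile includes the 3 wild-type libraries with few counts per fragment. These distances share the 12 libraries and their group differences and are a description.

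Within groups, deviations of the members from their group means in log2 CPM were compared over the 12 libraries, as a description. Pearson's r was positive in 11 of 15 pairs, with a median of 0.301. It was highest for Egr3 with Nab2 (0.844), Egr4 with Nab2 (0.744) and Egr3 with Egr4 (0.678), and lowest for Egr4 with Nab1 (−0.401). The libraries share their groups and their depth classes in this measure.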

How the data were processed

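RNA was sequenced from striatum (TruSeq Stranded Total RNA, per the labels' protocols). The submitters' processing notes name GRCm38 as the genome build, HISAT2 and bcl2fastq 2.20. The authors deposited estimated counts from StringTie, a signal of scaled fragment counts from Cuffdiff (both named in the file headers) and FPKM values. They also deposited a table with a ratio, log2 ratio, p-value and q-value for R6/2-T against R6/2-C, whose test the file headers do not name, and 12 further columns of per-sample values were not used.

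From the estimated counts, whole numbers as deposited, all 51912 genes were filtered (23453 kept) and fitted in 1 model of 4 group means with edgeR 4.0.16 (R 4.3.3, TMM, robust quasi-likelihood F test, two-sided, Benjamini-Hochberg adjustment over all genes, called under 0.05). StringTie totals exceed fragment totals by a median of 4.12 counts per fragment, so they are no count of molecules. Fragments were recovered by dividing the signal by its commonest low step, and 95.1 to 97.1% of values came out whole within 0.05. They were fitted in the same way over 18776 genes. The method was tested on simulated counts. Alternatives were RLE size factors, no filter, DESeq2 1.42.0, fragments, limma 3.58.1 on log2(FPKM + 0.1) and log2(FPKM + 1), only the groups compared, a replicate block and each library left out. A depth term and the shallower libraries alone were added after seeing the data.

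The 6 members and the gene lists were chosen with earlier results of these data known. Of pathway lists, up to 4 called genes per comparison with the smallest p could be named, of marker lists up to 2, and for each member the 3 genes of most similar profile. Extraction was by TRIzol or a column kit, and the labels do not say which library had which. Promoter sequences are from RefSeq (GRCm38.p6) and were matched by symbol. The windows of 4 members were searched, Egr2, Egr4, Nab1 and Nab2. Egr1 was left out of the search, and Egr3 had no entry.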

Additional observations from a re-analysis of the deposited data

Results flagged for a closer look

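Egr4 was marked out because its libraries moved in opposite directions with the shTRAX virus in the 2 genotypes. Every WT-T library lay above every WT-C library (log2 0.71), and every R6/2-T library lay below every R6/2-C library (log2 −0.88). The test of the difference itself, the interaction, was −1.59 in edgeR, with an unadjusted p of 0.00184 and an adjusted p of 0.346. Without library 1 of R6/2-C it was −1.11, with an adjusted p of 0.512. These directions were not particular to Egr4. The 18 other immediate-early genes had virus medians of 0.34 in wild-type mice and −0.56 in R6/2 mice, and an interaction median of −0.72.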

How the results depend on the processing

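All 4 EGR genes and Nab2 stayed called lower in R6/2-T against WT-T under each of the 22 alternatives, of which the shallower libraries alone hold only 1 WT-T library, whose spread is then assumed to be that of the other groups. No alternative called Nab1 in any comparison. In R6/2-C against WT-C the count of called members was 3, was 1 with only the groups compared (Egr1 −1.14 and Egr3 −0.93 lost) and was 2 to 4 as single libraries were left out. With the shallower libraries alone Egr1 was lost (−1.28, adjusted p = 0.0699). Egr4 passed there with DESeq2 (−0.97), fragments (−0.97), limma with 0.1 (−1.01) or 1 (−0.97) added, the depth term (−1.06) and the shallower libraries (−1.47). Leave-one-out values ran from −1.44 to −0.73 for Egr4 and from −2.97 to −2.49 for Egr2. In R6/2-T against R6/2-C, DESeq2 called 2 members (Egr4 −0.88, Nab2 −0.44) and fragments 1 (Egr2 −1.21), and in the interaction DESeq2 called 1 (Egr4 −1.58).

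Some values changed sign. For WT-T against WT-C, Egr2, at −0.10, was 0.46 in fragments, −1.26 in the shallower libraries and −0.99 to 0.21 with single libraries left out, and Egr3 was −0.0315 and −0.0311 with limma at the pseudocounts 0.1 and 1, −0.00125 with only the groups compared, −0.0948 with the depth term, −0.26 in the shallower libraries and −0.12 to 0.12 with single libraries left out. The Nab1 interaction was 0.00137 with RLE, 0.00148 with DESeq2, 0.00313 in fragments and −0.0923 to 0.0741 with single libraries left out. The Egr2 interaction turned from −1.07 to 0.33 in the shallower libraries. The log2(FPKM + 1) scale, which compresses low values by its construction, gave −1.97 and −2.25 for Egr2 in the genotype comparisons. The causes of the other changes were not tested.

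No pairing of same-numbered libraries was seen in their deviations (correlations −0.213 to 0.203). With 3 libraries a group this cannot exclude a pairing. A replicate block left the called members at 3, 5, 0, 0 and 0 over the 5 comparisons and moved the calls over all genes from 2131 to 1199 in R6/2-C against WT-C, from 5304 to 4464 in R6/2-T against WT-T and from 16 to 4 in R6/2-T against R6/2-C. The calls over all genes in R6/2-C against WT-C were also 3471 with DESeq2, 3263 in fragments, 454 with only the groups compared and 526 in the shallower libraries. In R6/2-T against R6/2-C they were 1684 with DESeq2, 507 in fragments and 50 and 52 with limma. In WT-T against WT-C DESeq2 called 114 genes. Shares of summed StringTie counts, not per length, put Egr1 at 66.1 to 71.3% of the EGR pool. Egr2 rests on 39 to 96 fragments in the R6/2-T libraries, which limits its precision there.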
